A study of Mus musculus with 8 samples.

Results

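The transcripts described are those of red blood cells and their precursors as measured in mouse muscle: the adult alpha globins Hba-a1 and Hba-a2, the adult beta globins Hbb-b1, Hbb-b2 and Hbb-bt, the erythroid heme enzyme Alas2, the red cell anion exchanger Slc4a1 and the red cell enzyme Bpgm. Myoglobin, Mb, was included as the oxygen-binding globin of muscle itself. Members were the probes, other than controls, whose accession belongs to one of these genes. That gave 9 probes, 1 for each of the 9 genes, out of 20972 genes with a named probe. All 9 were among the 11453 genes tested, the filter being 1 probe detected over background in 4 of 4 mutants or 4 of 4 wild types.

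RNA was taken from the red part of the gastrocnemius, a calf muscle, of 4 mice homozygous for a mutant Pus1 gene and 4 wild-type mice. Pus1 encodes pseudouridine synthase 1, which converts uridine to pseudouridine in tRNA and other RNA, and in humans its loss causes myopathy with lactic acidosis and sideroblastic anemia. All 8 mice were 14 to 16 weeks old and of the strain C57BL/6J, backcrossed for 5 generations, and none was treated. The series is titled a knockout, and the labels describe neither the allele nor any blood count. Mutants 1 and 2 and wild types 1 and 2 were male, and mutants 3 and 4 and wild types 3 and 4 were female. Each of 4 arrays held 1 mutant and 1 wild type of the same number and sex, in 2 colours, with the mutant in Cy5 on arrays 1 and 3 and in Cy3 on arrays 2 and 4. A genotype difference below is a mean log2 ratio, mutant over wild type, with its standard error from limma, and p-values were adjusted by Benjamini-Hochberg over all genes tested with a threshold of 0.05.

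Adult hemoglobin is a tetramer of paired alpha and beta chains, each holding a heme. Red cell precursors make both chains together with heme, whose synthesis in these cells starts with ALAS2. Newly released red cells still hold globin mRNA, and whole muscle contains blood, so a muscle RNA sample carries these transcripts beside those of its fibres. In such a bulk sample, a difference in the number of red cells and a difference in RNA per red cell cannot be told apart.

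The labels were checked on Pus1 and on muscle genes. Pus1 levels were 6.74, 6.88, 6.60 and 7.12 in mutants 1 to 4, against 8.69, 8.42, 8.72 and 9.13 in wild types 1 to 4, on the log2 scale. Every mutant was below every wild type, and the difference passed the threshold (log2 ratio -1.90, SE 0.10, limma adjusted p = 0.0454). All 14 listed red muscle fibre genes passed the filter. Between 39.8% and 42.5% of probes were detected over background in mutants and between 39.7% and 47.3% in wild types. The highest shares were in male wild types 1 and 2, at 45.0% and 47.3%.

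The adult globins and Alas2 varied together over the samples, while Mb did not. A few promoter windows are shown as background, and any part of their motifs in the levels was not tested. RefSeq (GRCm38.p6) gave a window for 6 of the 9 genes, and the 250 bases before the transcript start are printed 5′ to 3′ on the gene's strand. Those of Hba-a1 lie at chr11:32283422-32283671 on the plus strand, of Hbb-bt at chr7:103813924-103814173 on the minus strand, of Alas2 at chrX:150547167-150547416 on the plus strand, and of 1 of 3 Mb starts at chr15:77022788-77023037 on the minus strand. Capitals mark matches, on either strand, to the motif CCAAT, the motif CACCC, the TATA-box core TATAA and the GATA motif GATAA.
Hba-a1: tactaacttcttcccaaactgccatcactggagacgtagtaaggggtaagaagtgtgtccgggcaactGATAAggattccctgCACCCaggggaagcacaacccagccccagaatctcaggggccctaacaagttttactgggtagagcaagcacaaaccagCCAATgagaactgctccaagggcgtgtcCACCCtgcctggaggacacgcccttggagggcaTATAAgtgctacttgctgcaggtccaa
Hbb-bt: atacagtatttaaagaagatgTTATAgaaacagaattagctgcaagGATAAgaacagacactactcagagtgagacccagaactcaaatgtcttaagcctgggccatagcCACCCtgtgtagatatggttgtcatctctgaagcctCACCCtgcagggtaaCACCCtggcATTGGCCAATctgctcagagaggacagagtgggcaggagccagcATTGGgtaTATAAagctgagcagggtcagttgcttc
Alas2: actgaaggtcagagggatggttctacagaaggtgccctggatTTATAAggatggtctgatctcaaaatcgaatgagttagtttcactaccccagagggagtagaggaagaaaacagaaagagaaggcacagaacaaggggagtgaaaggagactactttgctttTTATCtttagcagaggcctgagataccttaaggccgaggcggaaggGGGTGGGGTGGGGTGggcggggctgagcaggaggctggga
Mb: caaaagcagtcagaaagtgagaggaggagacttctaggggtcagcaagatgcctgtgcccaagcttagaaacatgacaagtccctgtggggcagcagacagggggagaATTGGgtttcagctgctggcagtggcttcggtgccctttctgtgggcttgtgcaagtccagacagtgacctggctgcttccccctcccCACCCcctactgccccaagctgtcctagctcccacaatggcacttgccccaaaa
These short motifs are known from erythroid promoters, where CACCC can be bound by KLF1 and GATA by GATA1, and they also occur widely. CCAAT was found in 33.9%, CACCC in 52.0%, TATAA in 22.8% and GATAA in 22.6% of all 32851 RefSeq windows of this length. Hba-a1 held 1, 2, 1 and 1 matches to them in that order, with TATAA at position -27 from the transcript start. Hbb-bt held 3, 3, 2 and 1, with a TATAA at -28. Alas2 held 0, 3, 2 and 1. Its 2 TATAA matches lie far upstream, at -208 and -207 on opposite strands, and overlap by 4 bases. The Mb window held 1, 1, 0 and 0, and that of Bpgm, which is not printed, held 3, 0, 0 and 0. The windows of Hba-a1 and Hba-a2 share an identical run of 247 bases.

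The 5 adult globins and Alas2 were higher in mutant than in wild-type muscle in both female pairs, 3.03-fold to 3.52-fold on average, and near equal on average in the male pairs. With median centring of each array in place of loess they were also higher in both female pairs, except Hba-a2, at 3.03 on array 3 and -0.10 on array 4. Their mean log2 ratios lay between 1.60 and 1.82 in females and between -0.24 and 0.25 in males. Slc4a1 was higher mainly in 1 female pair, and Bpgm and Mb had ratios of -0.33 to 0.43 on the 4 arrays after loess. With median centring, Mb was at 1.16 and -1.25 on female arrays 3 and 4, and at 1.36 and -0.93 on male arrays 1 and 2, and Bpgm ranged from -0.86 to 0.90. Over all 4 arrays, 0 of the 9 genes passed the threshold for genotype, against 0.0175% of all genes tested, which were Pus1 and 1 other. At an unadjusted limma p under 0.05, 2 of the 9 passed, namely Hba-a2 and Alas2, against 5.87% of all genes. Fitted ratios were above 0 for 8 of the 9, against 54.2% of all genes, and on both female arrays for all 7 of the globins, Alas2 and Slc4a1, against 18.6%. With median centring, those 7 passed in the fit over genes (limma adjusted p 6.11e-07 to 0.0238), against 0.332% of all genes, and none of them passed in the fit over probes at the same ratios (limma adjusted p 0.140 to 0.423). The median log2 ratio of the 9 genes was 0.80, against 0.01 for all genes tested. Levels of mutants and wild types overlapped for all 9 genes, while 0.672% of all genes had every mutant above every wild type and 0.541% every mutant below. No spot of the 9 probes was marked saturated in any sample.

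**Figure D1:**
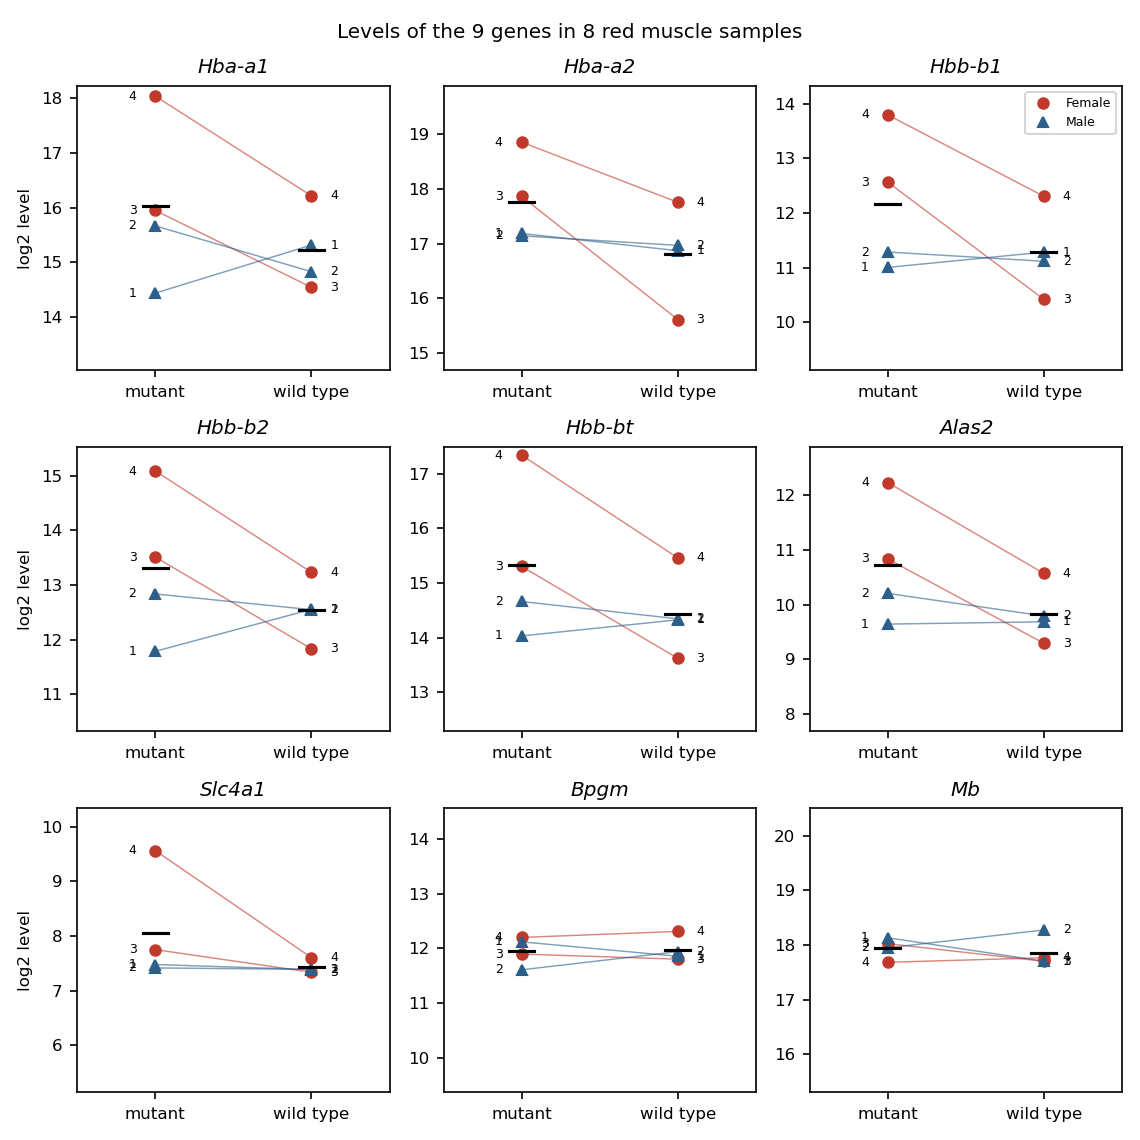
Log2 level (vertical axis) of each gene in 4 mutant and 4 wild-type samples, with lines joining the 2 samples of an array, numbers for the replicate, red circles for females, blue triangles for males and black bars for group means. The vertical axis spans the same number of log2 units in each panel, and mutant 4 is the highest of the 8 samples for the globins, Alas2 and Slc4a1.

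Hba-a1 and Hba-a2 encode near-identical alpha chains of adult hemoglobin. Hba-a1 levels were 14.44, 15.66, 15.95 and 18.04 in mutants 1 to 4, against 15.31, 14.83, 14.54 and 16.21 in wild types 1 to 4. Mutant 4 was the highest and mutant 1 the lowest of the 8 samples, and the wild types lay between them. The log2 ratio was 1.41 and 1.82 on the female arrays 3 and 4, and -0.88 and 0.84 on the male arrays 1 and 2. On average the ratio was 0.80 (SE 0.39, limma adjusted p = 0.707).

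Hba-a2 levels were 17.19, 17.14, 17.86 and 18.86 in mutants 1 to 4, against 16.87, 16.97, 15.61 and 17.76 in wild types 1 to 4. The female mutants were the highest 2 samples, wild type 4 came next to them and wild type 3 was the lowest. Its ratio was 2.25 and 1.10 on female arrays 3 and 4, and 0.31 and 0.18 on male arrays 1 and 2, so that the mutant was above its wild type in every pair after loess, though not on arrays 2 and 4 with median centring (-0.37 and -0.10) or on array 1 in the authors' value table (-0.0074). The average was 0.96 (SE 0.34, limma adjusted p = 0.707). In raw median intensity, its spot was the brightest of the Cy3 channel on array 4, at 229891 in mutant 4, and was not marked saturated. The alpha globin probes disagreed on array 1, where Hba-a1 was lower and Hba-a2 higher in the mutant. Because the copies are so alike, the share of each signal that comes from the other copy was not tested.

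Hbb-b1, Hbb-b2 and Hbb-bt encode adult beta chains. C57BL/6 mice carry the Hbb-bs and Hbb-bt pair of genes, and other strains Hbb-b1 and Hbb-b2 in their place, so the Hbb-b1 and Hbb-b2 probes may read their close relatives here. Cross-hybridisation was not tested, and the array holds 0 probes named Hbb-bs. Hbb-b1 levels were 11.01, 11.29, 12.57 and 13.79 in mutants 1 to 4, against 11.29, 11.12, 10.42 and 12.31 in wild types 1 to 4. Both female mutants were above every wild type, both male mutants lay among the wild types, and wild type 3 was the lowest sample. Its log2 ratio was 2.15 and 1.49 on female arrays 3 and 4, and -0.28 and 0.17 on male arrays 1 and 2. The average was 0.88 (SE 0.43, limma adjusted p = 0.707).

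Hbb-b2 levels were 11.79, 12.83, 13.51 and 15.08 in mutants 1 to 4, against 12.55, 12.55, 11.83 and 13.23 in wild types 1 to 4. The female mutants again held the top 2 places, with mutant 1 and wild type 3 at the bottom. The ratio was 1.68 and 1.85 on female arrays 3 and 4, and -0.77 and 0.29 on male arrays 1 and 2. Averaged over the 4 arrays it was 0.76 (SE 0.45, limma adjusted p = 0.711).

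Hbb-bt levels were 14.03, 14.66, 15.30 and 17.34 in mutants 1 to 4, against 14.33, 14.34, 13.62 and 15.46 in wild types 1 to 4. Wild type 4 stood slightly above mutant 3, and both were below mutant 4. The ratio was 1.68 and 1.88 on female arrays 3 and 4, and -0.29 and 0.32 on male arrays 1 and 2. Averaged, it was 0.89 (SE 0.39, limma adjusted p = 0.707).

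Alas2 encodes the erythroid form of the enzyme that makes 5-aminolevulinate from glycine and succinyl-CoA, the first step of heme synthesis. Its levels were 9.64, 10.21, 10.84 and 12.23 in mutants 1 to 4, against 9.69, 9.79, 9.29 and 10.57 in wild types 1 to 4. The order of the samples was close to that of the beta globins, with mutant 4 highest and wild type 3 lowest. The ratio was 1.54 and 1.66 on female arrays 3 and 4, and -0.04 and 0.41 on male arrays 1 and 2. The average was 0.89 (SE 0.32, limma adjusted p = 0.707).

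Slc4a1 encodes band 3, which exchanges chloride for bicarbonate across the red cell membrane and anchors its skeleton. Its levels were 7.48, 7.42, 7.75 and 9.56 in mutants 1 to 4, against 7.39, 7.39, 7.34 and 7.61 in wild types 1 to 4. Mutant 4 stood well above the other 7 samples, which lay close together. Accordingly, the log2 ratio was 0.41 and 1.96 on female arrays 3 and 4, and 0.09 and 0.03 on male arrays 1 and 2. The average was 0.62 (SE 0.31, limma adjusted p = 0.707), and without pair 4 the ratio fitted with the dye term was 0.14. This probe was dim, at percentile 14.4 of brightness among tested genes. Its raw intensity was 127 to 368 in the samples other than mutant 4, which had 513. In the scanner program's own ratio, female arrays 3 and 4 were at 0.85 and 2.34. Whether the low signal compressed the ratios was not tested.

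Bpgm makes 2,3-bisphosphoglycerate, which lowers the oxygen affinity of hemoglobin. Its levels were 12.12, 11.61, 11.89 and 12.20 in mutants 1 to 4, against 11.85, 11.94, 11.80 and 12.31 in wild types 1 to 4. The genotypes covered much the same range, and the ratio was 0.09 and -0.11 on female arrays 3 and 4, and 0.26 and -0.33 on male arrays 1 and 2. The average was -0.02 with a 95% interval of -0.22 to 0.18 (limma adjusted p = 0.954).

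Mb stores oxygen in slow and oxidative muscle fibres. Its levels were 18.13, 17.95, 18.03 and 17.69 in mutants 1 to 4, against 17.71, 18.28, 17.70 and 17.77 in wild types 1 to 4. Wild type 2 was the highest sample and mutant 4, which was highest for the red cell globins, the lowest. After loess the ratio was 0.32 and -0.08 on female arrays 3 and 4, and 0.43 and -0.33 on male arrays 1 and 2. It was thus positive where the mutant carried Cy5 and negative where it carried Cy3. The average was 0.09 with a 95% interval of -0.11 to 0.28 (limma adjusted p = 0.793). This dye pattern was kept with no background subtraction (0.47, -0.36, 0.35 and -0.12 on arrays 1 to 4). It was kept and wider with median centring (1.36, -0.93, 1.16 and -1.25). The scanner program's own ratio and the authors' value table broke it. Array 4 was at 0.06 in the scanner program's own ratio, and arrays 2, 3 and 4 were at 0.34, -0.07 and 0.17 in the authors' value table.

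**Figure D2:**
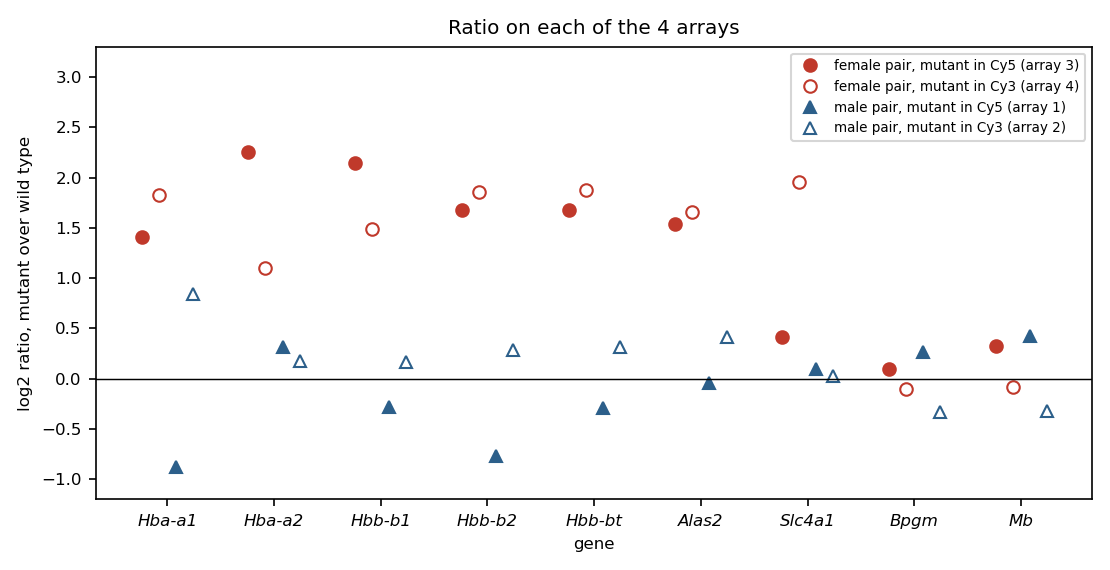
Log2 ratio after loess of mutant over wild type (vertical axis) for each gene (horizontal axis) on the 4 arrays, with red circles for female pairs, blue triangles for male pairs, filled symbols where the mutant carried Cy5 and open ones where it carried Cy3. For the 5 globins and Alas2, both female arrays lie between 1.10 and 2.25 and both male arrays between -0.88 and 0.84.

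The sex of the pair separated the ratios of the globins and Alas2 in both dye orientations. In the fit with a sex term, the genotype difference in females exceeded that in males for Hbb-b2 by 2.00 (SE 0.22, limma adjusted p = 0.00319), a ratio of 4.01 between the folds. The same term was 1.87 for Hbb-b1 (SE 0.25, limma adjusted p = 0.00706), 1.77 for Hbb-bt (SE 0.16, adjusted p = 0.0024) and 1.64 for Hba-a1 (SE 0.28, adjusted p = 0.0213). For Hba-a2 it was 1.43 (SE 0.24, limma adjusted p = 0.0174) and for Alas2 1.42 (SE 0.16, adjusted p = 0.00338). These 6 of the 9 genes passed, against 3.67% of all genes in that direction. The term was 1.13 for Slc4a1 (SE 0.33, limma adjusted p = 0.181), 0.03 for Bpgm (SE 0.16, adjusted p = 0.975) and 0.07 for Mb (SE 0.16, adjusted p = 0.919).

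Each sex had 2 pairs, and the fit left 1 residual degree of freedom. Without the dye term, 0 of the 6 genes passed (limma adjusted p 0.587 to 0.866), and 0 passed without any 1 of the 4 pairs, which also needed the dye term dropped (0.0657 to 1.00). In the scanner program's own ratio and in the authors' value table, Hbb-bt alone passed.

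After loess the female difference had the same side in both female pairs, which median centring turned for Hba-a2 on array 4, but not the same level. Mutant 4 was the highest of the 8 samples for all 7 of the globins, Alas2 and Slc4a1. For the same 7 genes wild type 4 was the highest and wild type 3 the lowest of the wild types, and for 5 of them wild type 3 was the lowest of all samples. Both female mutants were above both male mutants for each of the 7. Female minus male, the mean level of Hba-a1 differed by 1.94 in mutants and by 0.31 in wild types, and that of Hba-a2 by 1.20 in mutants and -0.23 in wild types. Over the 5 globins and Alas2, this gap between the sexes was 1.20 to 2.03 in mutants and -0.23 to 0.31 in wild types. Within one sex and genotype the spread was also wide: wild type 4 exceeded wild type 3 by 1.67 for Hba-a1 and 2.14 for Hba-a2.

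When the 2 female pairs were fitted alone, without a dye term, 5 of the 9 genes passed as higher in mutants, against 0.0524% of all genes. The globin probes may share targets, so these are not separate counts. The standard errors combine the ratios of 2 arrays with a variance that limma takes from all genes tested. They are thus not the spread of the 2 pairs alone, and they depend on which mice shared an array. Mice of 1 genotype lay far apart. For Hbb-bt, wild type 4 exceeded wild type 3 by 1.84, mutant 4 exceeded mutant 3 by 2.03, and wild type 4 was above mutant 3. Hbb-b1 was 3.52-fold higher in mutants (log2 ratio 1.82, SE 0.20, limma adjusted p = 0.0225), Hbb-bt 3.43-fold (1.78, SE 0.17, adjusted p = 0.0154) and Hbb-b2 3.40-fold (1.76, SE 0.17, adjusted p = 0.0154). Hba-a1 was 3.06-fold (log2 ratio 1.61, SE 0.18, limma adjusted p = 0.0225) and Alas2 3.03-fold higher (1.60, SE 0.17, adjusted p = 0.0201). Hba-a2, at 3.19-fold, had the larger spread between the pairs and did not pass (log2 ratio 1.68, SE 0.26, limma adjusted p = 0.162). These 5 genes stood beside 1 other gene that was higher, Zdhhc22, which encodes a protein of the DHHC palmitoyltransferase family, and 1 that was lower, Pus1. In the male pairs fitted alone, 0 genes passed, with 697 at an unadjusted limma p under 0.05.

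By size after loess, both female arrays exceeded a log2 ratio of 1 for 9 genes, 0.0786% of those tested. Of these, 6 were the 5 globins and Alas2, and the others included Zdhhc22 and Tesc. With median centring, array 4 was below 1 for each of the 5 globins and Alas2, from -0.10 for Hba-a2 to 0.96 for Hbb-b2. Among the 420 genes whose female difference exceeded the male one past the threshold, 400 had a male difference that was below 0 and larger in size than the female one. Only 11 of the 420 had a female log2 ratio over 1, among them the same 6 genes, Zdhhc22, Tent5c, Isg20 and Unc93a2. Tesc, the other gene that passed for genotype over all arrays, was higher in mutants of both sexes. Tesc and Isg20 were singled out after their values were seen.

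**Figure D3:**
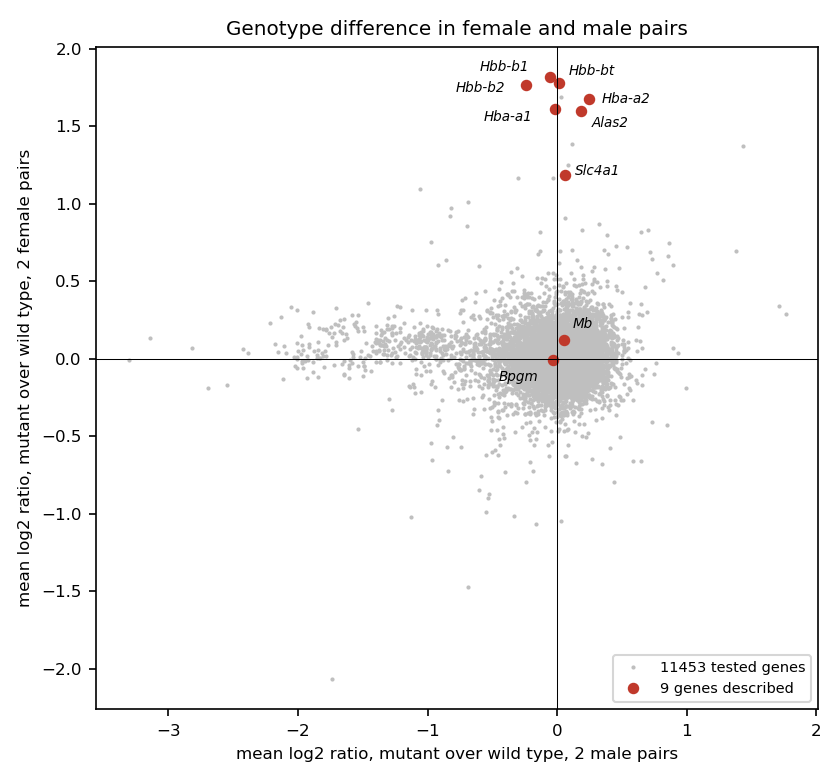
Mean log2 ratio of mutant over wild type in the 2 female pairs (vertical axis) against that in the 2 male pairs (horizontal axis) for 11453 tested genes (grey) and the 9 genes described (red). The 5 globins and Alas2 lie at 1.60 to 1.82 in females and near 0 in males. Most genes with a large difference between the sexes lie to the left, where mutants were below wild types in the male pairs.

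Over the 8 samples, the adult globins kept closely to one order. Pearson's r between levels ranged from 0.856 to 0.983 over the 10 pairs of globins, and with Alas2 included from 0.856 to 0.991 over 15 pairs. The 8 samples share 4 arrays and the globin probes may share targets, so these are descriptions. Among genes that were not members, those most like the mean globin level over 8 samples included Zdhhc22 (r = 0.994), Ctrb1 (0.967), Zfp653 (0.956) and Unc93a2 (0.941). For Alas2 they included Zdhhc22 (r = 0.981), Inpp5e (0.954), Tent5c (0.954) and Slc6a20a (0.949). Mb varied with other genes, namely 4933427D14Rik (r = 0.966), Synpo (0.960), Cog4 (0.959), Mrpl3 (0.957) and Dlst (0.951).

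Zdhhc22, the gene most like both the globins and Alas2, had levels of 9.26, 9.97, 10.45 and 12.14 in mutants 1 to 4, against 9.52, 9.65, 8.57 and 10.64 in wild types 1 to 4. It followed the globin order, with mutant 4 highest and wild type 3 lowest. The genes of like order were not all of like size, since Ctrb1 and Zfp653 had mean ratios of 0.17 each in females.

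The other lists of red cell genes had medians nearer 0, and 0 of their genes passed for genotype (limma). Of 15 red cell membrane and skeleton genes other than Slc4a1, 7 were tested, 4 higher and 3 lower in mutants, with a median log2 ratio of 0.02. The 8 not tested, among them the skeleton linker Epb42 and the Rh-associated glycoprotein Rhag, were not well above background in any sample. Ermap, an erythroid membrane protein, was at -0.995 (SE 0.43) and Epb41, which ties the skeleton to the membrane, at 0.13 (SE 0.07), each with a limma adjusted p of 0.707. Ermap was at 0.50 and -0.55 on female arrays 3 and 4, and at -1.56 and -2.37 on male arrays 1 and 2. Unlike the globins, it was not higher in both female pairs, and it was lower in both male pairs. Its female difference still exceeded the male one, by 1.94 (SE 0.15, limma adjusted p = 0.00156). It was the 1 gene of the 7 past the threshold for sex, against 3.67% of all genes in that direction.

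Heme synthesis and its mitochondrial transport gave 15 tested genes, 7 higher and 8 lower, with a median of -0.01. Slc25a37, the mitochondrial iron importer mitoferrin 1, was higher in mutants on 4 of 4 arrays, at 0.53 (SE 0.11, limma adjusted p = 0.707), and 6.5% of all genes were higher on 4 of 4. Flvcr1, a heme exporter, was at 0.31 (SE 0.07, limma adjusted p = 0.707). Alas1, the form of the first enzyme used outside the red cell line, was at -0.15 (SE 0.10, limma adjusted p = 0.716), against 0.89 for Alas2. The step shared by all cells that follows, Alad, was at 0.06 (SE 0.09, limma adjusted p = 0.893).

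Of 10 erythroid regulators, transcription factors and the receptor for erythropoietin, 4 were tested. All 4 were slightly higher in mutants, against 54.2% of all genes, with a median of 0.07. Lmo2 was at 0.12 (SE 0.09, limma adjusted p = 0.765) and Tal1 at 0.07 (SE 0.07, adjusted p = 0.806). The erythroid factors Klf1, Nfe2 and Gfi1b were not well above background in any sample, and Gata1 was in 2 of 8. Among the other globins, 5 of 9 were above background in 0 samples and Cygb was the only one tested, at -0.02 (SE 0.12, limma adjusted p = 0.969).

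Of 17 genes of late red cell precursors and reticulocytes, 13 were tested, 9 higher and 4 lower, with a median of 0.12. Tfrc, the transferrin receptor, was at -0.29 (SE 0.10) and Tent5c, a poly(A) polymerase, at 0.75 (SE 0.29), each with a limma adjusted p of 0.707. For 4 of the 13 the female difference exceeded the male one past the threshold, Tent5c, Isg20 and Hemgn among them, against 3.67% of all genes. Tent5c was at 0.97 and 1.80 on female arrays 3 and 4, and at -0.18 and 0.40 on male arrays 1 and 2. Hemgn, a nuclear protein of red cell precursors, was at 1.01 and -0.67 on female arrays and at 0.06 and -2.01 on male arrays, with array 2 far the lowest.

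Genes of hemoglobin and heme disposal were 7 tested of 9, all with fitted ratios above 0, against 54.2% of all genes. Their median was 0.09 and the lowest was at 0.00013. Ferritin heavy chain, Fth1, was at 0.15 (SE 0.07) and light chain, Ftl1, at 0.20 (SE 0.10), each with a limma adjusted p of 0.707. Genes that respond to low oxygen were 12 tested, 4 higher and 8 lower, with a median of -0.05. Among them Car9, a carbonic anhydrase, was at -0.40 (SE 0.07) and Ddit4 at -0.58 (SE 0.23), each with a limma adjusted p of 0.707.

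Leukocyte markers, 7 tested of 13, had a summed linear level of 13010 to 33630 in mutants and 12010 to 110900 in wild types, highest in wild type 2. Nearly all of this sum was 1 probe, Itgam, and without it, a choice made after seeing the data, the sum was 3548 to 4129 in mutants and 3684 to 4230 in wild types, highest in wild type 1. Cd79b was at 0.32 (SE 0.07) and Itgam at -0.60 (SE 0.33), each with a limma adjusted p of 0.707. The 7 tested markers, Cd79b and Cd3e among them, were above background in 8 of 8 samples. Of the others, Ptprc was in 2, Camp in 4, S100a8 in 1, and Ngp, Cd79a and Cd3g in 0. Only 1 of 10 platelet markers, Pf4, was tested, at 0.01 (SE 0.20, limma adjusted p = 0.987), with a sum of 603 to 1487 in mutants and 745 to 1040 in wild types. All 12 endothelial markers were tested, 3 higher and 9 lower, with sums of 32450 to 40700 in mutants and 31690 to 43680 in wild types. Flt1 was at -0.20 (SE 0.11, limma adjusted p = 0.707) and Egfl7 at 0.08 (SE 0.08, adjusted p = 0.819).

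Red muscle fibre genes had 14 tested, 12 higher and 2 lower, while 54.2% of all genes were higher. Their median was 0.16 against 0.01 for all genes. Tnnt1, slow troponin T, was at 0.42 (SE 0.09) and Tpm3, slow tropomyosin, at 0.60 (SE 0.16), each with a limma adjusted p of 0.707. Their summed level was 1726000 to 2186000 in mutants and 1437000 to 2185000 in wild types. The part of cell makeup in the globin values was not tested.

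**Figure D4:**
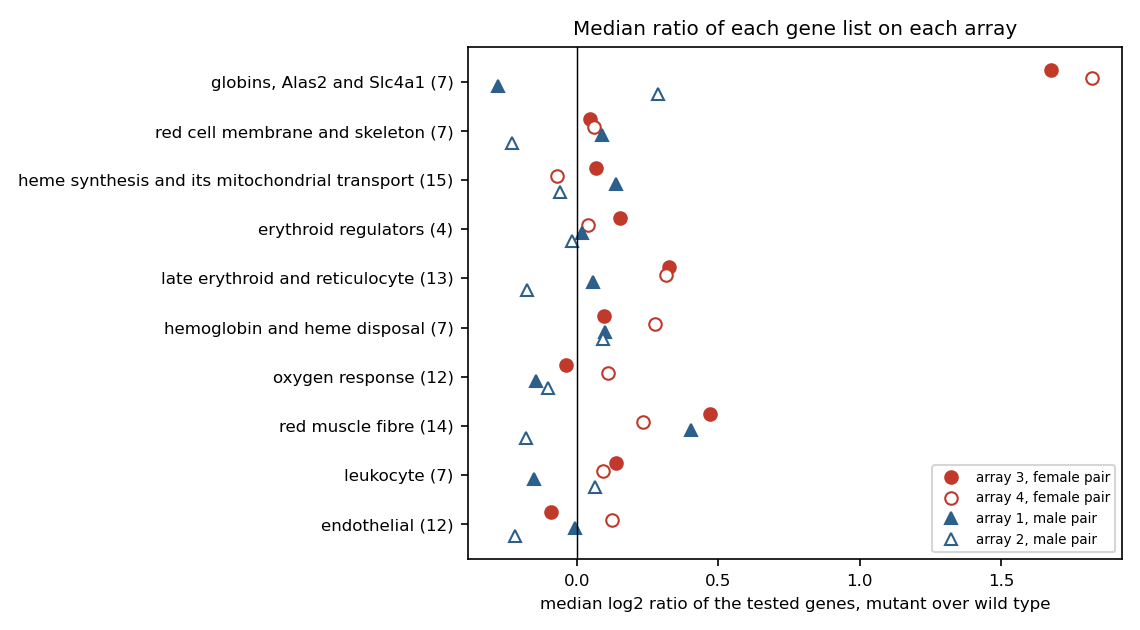
Median log2 ratio of mutant over wild type (horizontal axis) over the tested genes of each list (rows, with the number of genes) on the 4 arrays, with red circles for female pairs, blue triangles for male pairs, and filled symbols where the mutant carried Cy5. The globins, Alas2 and Slc4a1 lie at 1.68 and 1.82 on the female arrays 3 and 4, apart from the medians of the other lists.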

How the data were processed

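Two-colour Agilent arrays of 62976 spots compared 4 mutant and 4 wild-type samples, from 100 ng RNA each, per the labels. The deposited scanner files, made with Agilent Feature Extraction 10.7.3.1 per the submitters' processing notes, give spot and local background intensity on a linear scale, processed intensity, a log10 ratio of Cy5 over Cy3, and flags, per the file headers. A further table of the authors' values is deposited in log2 units, found from its values: differences between paired columns correlated with the scanner ratio at r = 0.997, 0.991, 0.997 and 0.998 on arrays 1 to 4, which also gave its direction. It is centred per probe (largest row median 9.55e-07). Its column medians were -0.0016, 0.0067, 0.0045 and 0.019 for mutants 1 to 4 and -0.035, -0.062, 0.013 and 0.0036 for wild types 1 to 4. The steps that made it are not named by any source at hand.

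Median intensity was corrected by normexp (offset 50) and normalized by loess within arrays in limma 3.58.1 (R 4.3.3), with control and outlier spots at weight 0. Levels used Aquantile between arrays. Spots of a probe were averaged. The design had named mean signals and a gene name column, absent from these files, so medians served instead and probes were named by accession (without version) from RefSeq, GRCm38.p6. Of 55681 probes, 27656 matched 1 gene, 16194 lie in unnamed regions and 11831 had no match. Testing needed a probe well above background in 4 of 4 samples of a genotype, and a gene took its brightest tested probe (21146 probes of 11453 genes). Since each of the 9 genes has 1 probe, its ratio is the same per probe and per gene, while p-values differ between the fits. The fit used mutant over wild-type ratios with a dye term, and a second fit added sex. The fits were tested on simulated data.

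Each array is a pair. Within pairs, departures from the genotype means correlated at r = 0.38, 0.25, 0.12 and 0.50, and the array stays as a block in the ratio. The 4 arrays lie on 1 slide, which leaves no slide effect to test. The number of arrays limits the precision. Members and gene lists were chosen with earlier results of these data known. Named genes were all members, the 2 genes of smallest p in each list, those past the threshold, and the 5 most like the globins, Alas2 and Mb, of which some are not reported here. Tesc, Isg20, Hemgn, Alas1 and Alad were named after their values were seen.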

Additional observations from a re-analysis of the deposited data

Results flagged for a closer look

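The genotype difference depended on the sex of the pair, by the fitted difference of female minus male log2 ratios, for 6 genes: Hba-a1 (1.64), Hba-a2 (1.43), Hbb-b1 (1.87), Hbb-b2 (2.00), Hbb-bt (1.77) and Alas2 (1.42). With 2 pairs of each sex, the term rests on those pairs, and none of these 6 passed without the dye term or without any 1 pair.

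Among the 18 sets of 4 levels (9 genes in 2 genotypes), 2 held a sample far from the other 3, and chance alone gives about 1 in 20. Slc4a1 in mutants had a gap of 0.844 of its range, with mutant 4 above the others. Mb in wild types had a gap of 0.886 of its range, with wild type 2 above the others.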

How the results depend on the processing

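With 4 pairs, the count of genes past the threshold for genotype moved from setting to setting. It was 2 as reported, 267 with median centring in place of loess (38 higher, 229 lower), 0 with the scanner's own ratio, 0 with the authors' value table, 1 without a dye term and 0 for genes above background in all 8 samples. It was 0 in male pairs alone, 7 in female pairs alone (6 higher, 1 lower), and 0 without each replicate in turn. At an unadjusted limma p under 0.05, the counts of 0 stood beside 782 (scanner ratio), 724 (value table), 628 (all 8 samples), 697 (males) and 302 to 1157 (without a replicate). Per probe it was 0 (1154 unadjusted) and 29 with median centring. For the sex term it was 445, against 136 with the scanner ratio, 97 with the value table, 0 without a dye term (502 unadjusted) and 0 to 128 without 1 replicate. Those last fits leave 1 pair in a sex, which is assumed to vary like the others, and were chosen after seeing the data.

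With median centring, the globins, Alas2 and Slc4a1 all passed for genotype over the 4 arrays (limma adjusted p 6.11e-07 to 0.0238), though none did per probe (0.140 to 0.423), and this also took Slc4a1 past the threshold for sex (0.000533). The genotype ratio of the 5 globins and Alas2, fitted with the dye term, was 1.04 to 1.49 without replicate 1 or 2. It was 0.15 to 0.73 without replicate 3 or 4, with 0 of the 6 past the threshold in any of these 4 fits. With 8 channels as separate samples and no replicate block, 3 genes passed in all and none of the 9, at the same ratios.

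In male pairs alone, Hba-a1 (-0.021), Hbb-b1 (-0.055) and Hbb-b2 (-0.24) had the opposite sign to the average. Bpgm changed sign for genotype with median centring (0.0087) and the value table (0.0044), and ranged from -0.077 to 0.035 without 1 replicate. For sex, Bpgm was -0.22 (median centring), -0.012 (scanner ratio), -0.043 (value table) and -0.27 to 0.32 without 1 replicate (-0.075 without replicate 3). Mb for sex was -0.26, -0.22 (median centring, value table) and -0.31 to 0.45 (-0.13 without replicate 3). Median centring and the value table shifted the median sex term of all genes by -0.15 and -0.12. Over the scalings, the mean of the 2 female pairs was 1.07 to 1.91 for the 7 erythroid genes, but median centring spread the pairs, to 3.03 and -0.10 for Hba-a2, 2.12 and 0.70 for Hba-a1 and 2.70 and 0.68 for Hbb-b1 on arrays 3 and 4. The causes were not tested.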
